A study of Oryza sativa with 12 samples.

Results

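The 2 parental lines of a super-hybrid rice were compared in their roots at the heading stage, when the panicle emerges. The comparison sets the 2 heading libraries of Xieqingzao B, an indica line and the mother of the hybrid, against the 2 heading libraries of R9308, its father, a restorer line of partly japonica descent, over all 42081 annotated transcripts. These 4 libraries belong to a set of 12, 2 for each of the 3 genotypes (both lines and their hybrid) at tillering and at heading. Seedlings raised in the field for about 30 days were moved to plots floating on nutrient solution, so that both lines and the hybrid shared 1 pool, and 2 roots of each genotype and stage were kept for RNA-Seq. Paired-end reads of poly-A selected RNA were counted per transcript. The time of day at sampling and the age of the plants at heading are not given in the sources used here.

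The hybrid receives 1 copy of every nuclear gene from each of these lines, so the levels of the lines are those against which its own are read. A rice root at heading takes up nitrate, silicon, iron and water for the filling panicle, and does so under low oxygen, where alcohol fermentation takes over part of the energy supply. Roots also make diterpenoid phytoalexins and carry intracellular immune receptors, and both kinds of genes vary between rice varieties.

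The counts of the 4 libraries summed to between 8977219 and 11617284. Transcripts were tested on TMM-normalised counts with edgeR's quasi-likelihood F-test, in a fit that also held the 2 hybrid libraries of the stage. A transcript was called a differentially expressed gene (DEG) at a Benjamini-Hochberg adjusted p of at most 0.05 and a fold change of at least 2. Levels are given as RPKM (reads per kilobase of transcript, scaled to the counts of the library), for replicates 1 and 2 of a line in this order. Log2 fold changes are Xieqingzao B over R9308. The value after ± is the absolute log2 fold change divided by the square root of the F of the test. It only approximates a standard error, and it can be too small where 1 line has few counts. Only 2 roots, described as biological replicates, stand behind each line, and whether they came from separate plants is not stated, so each p measures the spread between these libraries. In bulk roots, fewer cells of a type and less RNA per cell cannot be told apart.

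Of 27187 transcripts that passed the filter on low counts, 2926 were DEGs, or 10.8%. Of these, 1196 were higher in Xieqingzao B, which is 4.40% of those tested, and 1730 were higher in R9308, which is 6.36%. The median log2 fold change over all transcripts tested was 0.04, and it moved up by 0.13 when libraries were scaled by their sums alone. In all 2926 DEGs the 2 libraries of 1 line lay above both of the other. Between 2- and 4-fold separated 1182 of them, 4- to 16-fold separated 841 and 16-fold or more separated 903. Leaving out R9308 replicate 1 reduced the DEGs to 612, of which 574 were among the 2926 and had the same direction. Without R9308 replicate 2 there were 1005, without Xieqingzao B replicate 1 there were 1849, and without Xieqingzao B replicate 2 there were 2863. A fit without the hybrid libraries gave 1615. Replicate counts differed more in Xieqingzao B than in R9308, with a chi-square per degree of freedom of 49.49 against 20.61. Fits that left out an R9308 library took their spread from the Xieqingzao B and hybrid libraries. Of 70 DEGs named here, 36 were called in all 4 fits that left out 1 library and 4 in none of them, and none of the 70 turned its direction in these fits.

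**Figure D1:**
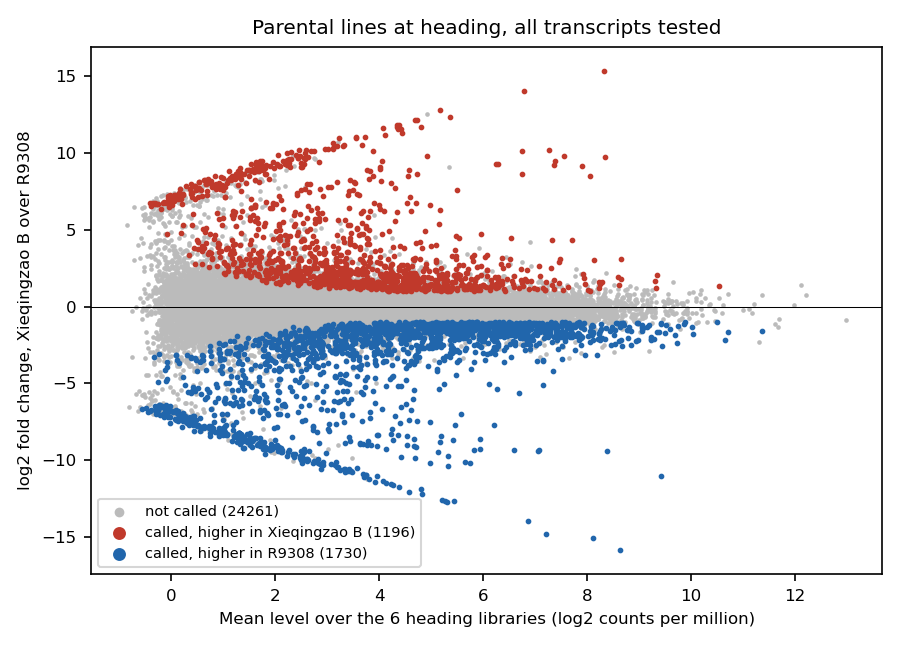
Each point is 1 of the 27187 transcripts tested, with its mean level over the 6 heading libraries on the x axis (log2 CPM) and its log2 fold change, Xieqingzao B over R9308, on the y axis. The 1196 red and 1730 blue points are the DEGs, and those with the largest fold changes have no count in 1 of the lines, so that their fitted value depends on the fit's small prior count.

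A total of 458 DEGs, or 15.7%, had no count in either library of 1 line. Counts were absent from R9308 in 201 DEGs and from Xieqingzao B in 257. For these, the fold change is a lower bound, set by the 3 counts that a count of 0 allows in a library. Reads were assigned to transcripts of the japonica line Nipponbare. A count of 0 thus means that no read was assigned, which is not the same as absent RNA. The part of sequence differences between the lines was not tested, here or for the immune receptors and runs of loci below. The hybrid had counts in both of its heading libraries for 182 of the 201 and for 250 of the 257. Its mean RPKM had a median of 40.7% of the Xieqingzao B level in the first set (quartiles 25.5% and 62.1%) and 51.3% of the R9308 level in the second (36.4% and 73.5%).

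The most extreme pair came from 1 locus on chromosome 1 annotated as transaldolase, an enzyme of the pentose phosphate pathway. Its transcript Os01t0926300-01 stood at 371 and 333 RPKM in Xieqingzao B and at 0 in both R9308 libraries, a level at least 1604-fold higher. Transcript Os01t0926300-02 stood at 504 and 441 RPKM in R9308 and at 0 in both Xieqingzao B libraries, at least 2944-fold lower in the latter (adjusted p = 0.00185 by the quasi-likelihood test). The remaining transcript, Os01t0926300-03, was present in both lines, with 136 and 119 RPKM in R9308 and 51.2 and 46.9 in Xieqingzao B (log2 fold change -1.50 ± 0.17, adjusted p = 0.00899, or 0.0551 without R9308 replicate 1). Together the 3 transcripts of the locus summed to 640.1 and 560.4 RPKM in R9308 and to 423 and 379.7 in Xieqingzao B. Counts summed over the locus differed by a log2 fold change of -0.70 ± 0.20 and missed the threshold (adjusted p = 0.0553). Both lines thus held transaldolase RNA, assigned to different annotated transcripts. In the hybrid, both were present, with 214 and 307 RPKM of the first and 299.7 and 226 of the second.

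A hexose transporter locus on chromosome 7, whose product moves sugars across membranes, also had transcripts called in both directions. Transcript Os07t0106200-02 had 246 and 208 RPKM in R9308 and 0 in both libraries of Xieqingzao B, at least 1724-fold lower. Transcript Os07t0106200-01 had 103 and 329 RPKM in Xieqingzao B and 23.8 and 23.9 in R9308, a difference that was not called without R9308 replicate 1 or 2 (adjusted p = 0.150 and 0.134). The remaining transcript of the locus was also called higher in R9308, with 114 and 42.4 RPKM against 1.91 and 3.30 in Xieqingzao B. The sums over the locus were 383 and 274 RPKM in R9308 and 105 and 332 in Xieqingzao B, and these overlap between the lines. In all, 19 loci had at least 1 transcript called higher in each line. Those with the highest levels also included an AN1-type zinc finger protein on chromosome 2, a thioredoxin on chromosome 5 and a major facilitator transporter on chromosome 6. Of these 5 loci, none was called on counts summed over the locus (adjusted p between 0.0400 and 0.697). The thioredoxin locus had an adjusted p of 0.0400 and a log2 fold change of -0.75, short of 2-fold. The reads of a locus are divided among its transcripts by an estimate, so these values are less certain than those of the locus.

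**Figure D2:**
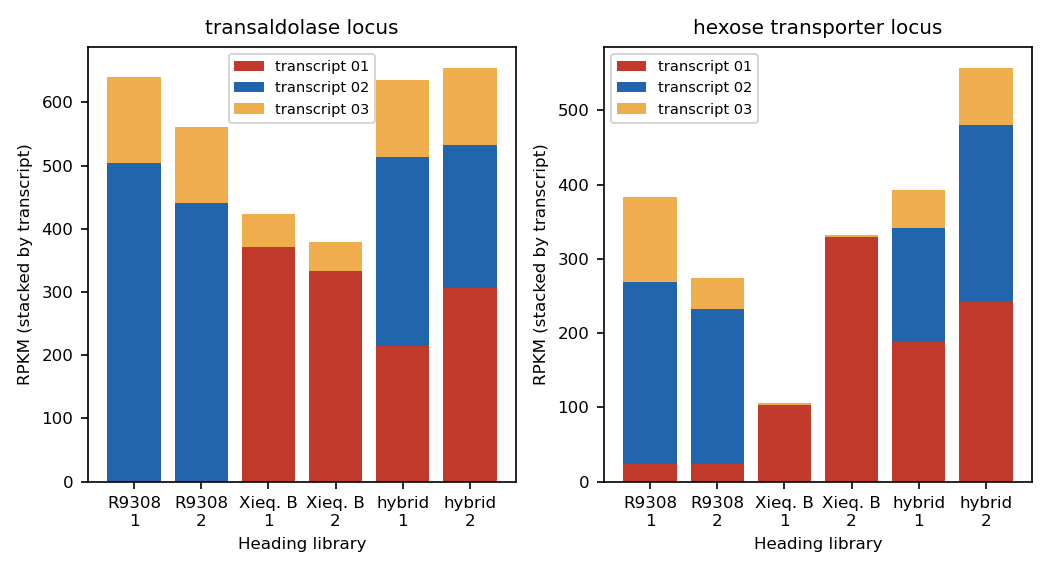
Stacked bars give the RPKM of the 3 annotated transcripts of the transaldolase locus (left) and of the hexose transporter locus (right) in the 6 heading libraries. Transcript 02 of both loci is at 0 in Xieqingzao B, transcript 01 of the transaldolase locus is at 0 in R9308, and the hybrid holds both.

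Among the other DEGs with the largest fold changes, an argonaute protein, a glycolate oxidase and the salt-induced protein SalT had counts in R9308 and none in Xieqingzao B. Os03t0682600-00 on chromosome 3, annotated as similar to argonaute 11, a family that binds small RNAs, had 42.2 and 32.3 RPKM in R9308. Os08t0198700-01 on chromosome 8, a glycolate oxidase, an enzyme of peroxisomes, had 48.8 and 66.3 RPKM. The SalT transcript Os01t0348900-01 had 108 and 62.2 RPKM. This puts the 3 at least 214-, 332- and 233-fold lower in Xieqingzao B. Also without a count in Xieqingzao B were a transcript of a cycloartenol synthase of sterol synthesis (Os11t0562100-02, 18.7 and 19.2 RPKM in R9308), a transposase (Os11t0308100-01), a protein kinase (Os09t0355400-01), an armadillo repeat protein (Os06t0159900-01) and Os01t0364800-00. Their bounds lay between at least 129-fold and at least 300.4-fold. The values here and for the opposite direction below are of single transcripts, and sums over their loci are not given.

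In the opposite direction, a proteasome maturation factor of the UMP1 type (Os03t0583700-00, chromosome 3) had no count in R9308 at heading. It had 77.9 and 84.6 RPKM, at least 127-fold more, in Xieqingzao B. A fatty acid hydroxylase domain protein (Os02t0621300-01, chromosome 2) had 21.9 and 17.1 RPKM there. A GTP-binding protein of the Root hair defective 3 family (Os01t0575000-01, chromosome 1), which in Arabidopsis is needed for the shape of the endoplasmic reticulum and of root hairs, had 18.3 and 28.7 RPKM. A transcript of a low molecular weight heat shock protein (Os01t0135900-04) had 71.1 and 29.9 RPKM. The last 2 were not called without R9308 replicate 1, with adjusted p = 0.0621 and 0.0573, nor without R9308 replicate 2 (0.0554 and 0.0505). At tillering, R9308 had 7.79 and 7.48 RPKM of the GTP-binding protein, against 18.2 and 0 in Xieqingzao B. Of the heat shock transcript R9308 then had 12.0 and 6.08 RPKM, against 33.9 and 40.2. Of the UMP1-type factor it had 0 and 0.115, against 59.9 and 55.3, and of the hydroxylase 3.67 and 0.0255, against 7.67 and 9.47. Os01t0942900-01 and Os03t0440466-00, for which the annotation gives no function, also had no count in R9308 at heading. At a higher level still, Os06t0580100-01, a conserved hypothetical protein on chromosome 6 singled out after its values were seen, had 2030 and 1818 RPKM in R9308 and 1.18 and 0.786 in Xieqingzao B (log2 fold change -11.03 ± 0.34). The hybrid had 851 and 765 RPKM of it.

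Transcripts were also grouped into 41 lists by their annotation or pathway. The share of tested members that were DEGs ran from 0% to 63.6%, around the 10.8% of all transcripts. The lists farthest above that share were terpene cyclases, aquaporins, diterpenoid synthesis, photosynthesis and NB-ARC receptors. Terpene cyclases, with 7 of 11 called, and diterpenoid synthesis, with 7 of 17, share members, so these 2 lists are not separate results. Phosphate transporters, with 0 of 18, and ribosomal proteins, with 8 of 384, had the lowest shares. For phosphate transporters, 3 members had an unadjusted p under 0.05, and DESeq2 called 2.

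**Figure D3:**
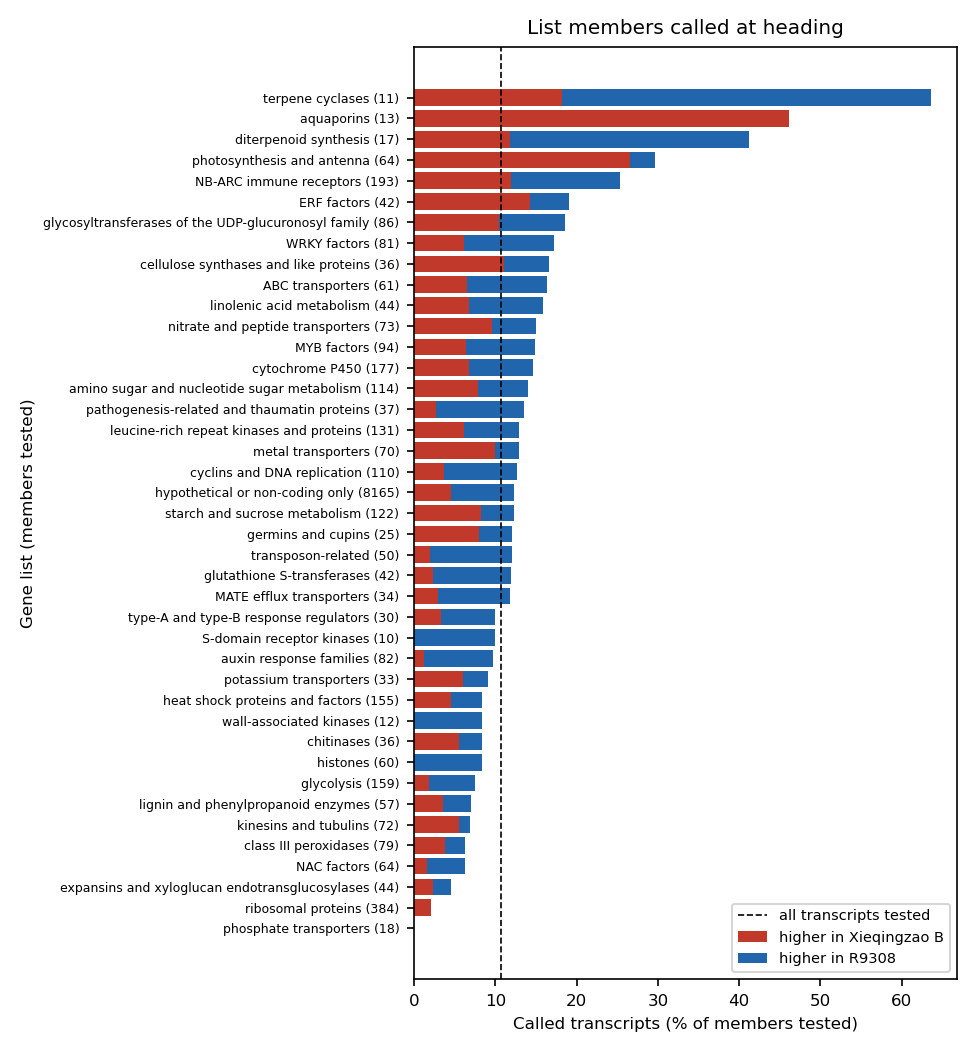
Bars give the percentage of tested members of each gene list that were DEGs, in red for those higher in Xieqingzao B and in blue for those higher in R9308, with the number tested in brackets. The dashed line marks the 10.8% of all transcripts tested, and the 46.2% of aquaporins that were called are all in red.

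NB-ARC proteins are intracellular immune receptors that sense pathogen molecules. Of 193 tested, 23 were higher in Xieqingzao B and 26 were higher in R9308, so 25.4% were DEGs, against 10.8% of all transcripts. Their median log2 fold change was 0.09, close to the 0.04 of all transcripts, and the DEGs were split between the lines. Without R9308 replicate 1, 21 of them were called, and without R9308 replicate 2, 23 were. Os08t0260800-00 on chromosome 8 had 28.9 and 15.8 RPKM in Xieqingzao B and none in R9308, at least 179-fold higher. Os11t0222900-01 on chromosome 11 had 12.6 and 21.9 RPKM there and none in R9308. In the opposite direction, Os08t0170100-01 had 5.47 and 5.43 RPKM in R9308 and 1 count in all in Xieqingzao B, a ratio of 163 with a counting interval (95%, exact) from 28.7 to 6479. The member with the highest level, the ADR1-like receptor Os12t0586000-01 on chromosome 12, had 151 and 137 RPKM in R9308 and 63.5 and 66.0 in Xieqingzao B (log2 fold change -1.28 ± 0.16, adjusted p = 0.0116). In Arabidopsis, ADR1 proteins act as helpers to other receptors of this class. This receptor was not called without R9308 replicate 1 (adjusted p = 0.0656).

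DEGs were not spread evenly along the genome. Chromosome 11 held 261 DEGs among 1415 transcripts tested (18.4%), and on the other chromosomes the share lay between 8.60% on chromosome 12 and 13.4% on chromosome 7. Without its NB-ARC members, chromosome 11 still had 238 of 1355 (17.6%). NB-ARC members were DEGs in 23 of 60 cases on chromosome 11 and in 26 of 133 cases elsewhere. Neighbouring loci were often called together. A locus had a DEG in 12.2% of 22349 cases, and the locus that followed one with a DEG had one in 19.9% of cases.

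In runs of 20 neighbouring tested loci, the median was 2 loci with a DEG, and 5 runs that did not overlap held 12 to 15. The densest ran from Os11g0689100 to Os11g0699532, where 15 of 20 loci had a DEG, 8 of them with one higher in R9308 and 7 with one higher in Xieqingzao B. It held the protein kinase Os11t0691100-00, with 225 and 222 RPKM in R9308 and 0.324 and 0.361 in Xieqingzao B (log2 fold change -9.43 ± 0.24). It also held the Hsp70 family protein Os11t0696600-01, with 0.128 and 0.530 RPKM in R9308 and 34.6 and 19.4 in Xieqingzao B. Both directions thus occurred side by side in this run.

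A second run on chromosome 11, from Os11g0226800 to Os11g0232100, covered a cluster of NB-ARC genes, with 13 of 20 loci called. In this cluster Os11t0227200-01 had 43.7 and 50.9 RPKM in Xieqingzao B and 2 counts in all in R9308, a ratio of 1280 with a counting interval from 354 to 10574. Its neighbour Os11t0226933-01 had 123 and 170 RPKM against 6.58 and 6.75 in R9308. Next to them, Os11t0227100-00 was higher in R9308, with 15.1 and 15.8 RPKM against 1.30 and 1.55. Near copies lie close together here, so reads could be shared among them, and the value of a single copy is uncertain.

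The other 3 runs lay on chromosome 4, and most of their called loci were higher in R9308. That from Os04g0293700 to Os04g0303300 had 13 called loci, 12 of them with a transcript higher in R9308, among them Os04t0297800-01 with 104 and 110 RPKM against 0.705 and 0.357. A helix-loop-helix domain protein in it, Os04t0301500-01, had 319 and 152 RPKM in R9308 and 51.9 and 33.0 in Xieqingzao B, and was not called without R9308 replicate 1 (adjusted p = 0.105) or either Xieqingzao B replicate (0.0636 and 0.0743). The run from Os04g0218350 to Os04g0226800 also had 13 called loci, 9 of them with a transcript higher in R9308. The run from Os04g0170166 to Os04g0179100 had 12, of which 11 had a transcript higher in R9308, and it held the gene for syn-copalyl diphosphate synthase.

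That enzyme starts the branch of diterpenoid synthesis that leads to momilactones, phytoalexins that rice roots also release into their surroundings. Genes of this branch stood higher in R9308. Syn-copalyl diphosphate synthase (Os04t0178300-02) had 172 and 236 RPKM in R9308 and 37.8 and 60.7 in Xieqingzao B, a log2 fold change of -2.17 ± 0.32 (adjusted p = 0.0155). Its second transcript, Os04t0178300-01, had 106 and 88.1 RPKM against 8.74 and 13.2. Syn-pimara-7,15-diene synthase (Os04t0179700-01), the next enzyme of the branch, had 51.7 and 47.3 RPKM in R9308 and 3.66 and 5.82 in Xieqingzao B (log2 fold change -3.51 ± 0.47). The libraries of the lines did not overlap for any of these 3 transcripts, although Os04t0178300-02 and Os04t0179700-01 were not called without R9308 replicate 1 (adjusted p = 0.0574 and 0.0658) or R9308 replicate 2 (0.0692 and 0.0554).

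Of 17 transcripts tested in the diterpenoid pathway, 5 were higher in R9308 and 2 in Xieqingzao B (41.2%, against 10.8% of all transcripts). The median log2 fold change of the 17 was -0.76. The other 2 that were higher in R9308 are annotated as similar to ent-kaurene synthase 1A (Os12t0491800-01 and Os02t0570400-01). The first had 14.5 and 15.8 RPKM in R9308 and 1.75 and 4.20 in Xieqingzao B (log2 fold change -2.48 ± 0.43). The second had 53.6 and 91.85 RPKM against 28.5 and 23.9 (log2 fold change -1.60 ± 0.32). The 2 that were higher in Xieqingzao B belong to the early steps of gibberellin synthesis. They were Os02t0278700-01, annotated as kaurene synthase A (0.265 and 0.174 RPKM in R9308, 5.35 and 3.23 in Xieqingzao B), and the ent-kaurene oxidase Os06t0570100-01 (2.65 and 2.43 against 7.02 and 8.31). Neither Os02t0570400-01 nor Os06t0570100-01 was called in any fit that left out a library. Only 1 of the 17 was called without R9308 replicate 1, and 1 without R9308 replicate 2.

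Aquaporins form channels for water and small solutes through the plasma membrane and the vacuole membrane. Of 13 tested, 6 were higher in Xieqingzao B and 0 were higher in R9308 (46.2%, against 10.8% of all transcripts). The median log2 fold change of the 13 was 1.33. A plasma membrane intrinsic protein on chromosome 4 (Os04t0559700-01) had 270 and 289 RPKM in R9308 and 1383 and 1193 in Xieqingzao B, a log2 fold change of 2.08 ± 0.21 (adjusted p = 0.00661). Os02t0666200-02 had 189 and 180 RPKM against 617 and 910. A tonoplast intrinsic protein on chromosome 1 (Os01t0975900-01) had 12.6 and 10.4 RPKM against 106 and 151 (log2 fold change 3.35 ± 0.25). Summed over all 25 annotated members, the level was 1946 and 1867 RPKM in R9308 against 3495 and 4967 in Xieqingzao B, while the hybrid libraries had 1076 and 1061. The pair of plasma membrane transcripts was not called without R9308 replicate 1 (adjusted p = 0.0551 and 0.0848), nor was Os02t0666200-02 without R9308 replicate 2 (0.0768). Lsi1, the silicon channel of the same family (Os02t0745100-01), had 908 and 777 RPKM in R9308 and 413 and 934 in Xieqingzao B, which overlap. Without R9308 replicate 1, 1 of the 13 was called, and without R9308 replicate 2, 3 were.

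Transcripts of high-affinity nitrate uptake were lower in Xieqingzao B. The transporter NRT2.1 (Os02t0112100-00, chromosome 2), which brings nitrate into the root at low supply, had 197 and 153 RPKM in R9308 and 18.8 and 16.4 in Xieqingzao B, a log2 fold change of -3.44 ± 0.25 (adjusted p = 0.00310). A neighbouring copy with the same annotation (Os02t0112600-01) had 292 and 150 RPKM against 34.4 and 51.9, a log2 fold change of -2.48 ± 0.40. Reads of near copies can be divided between them, so the value of each copy is uncertain. The second copy was not called without R9308 replicate 1 (adjusted p = 0.0633) or Xieqingzao B replicate 1 (0.0646). NAR2.1 (Os02t0595900-00), the partner protein that NRT2.1 needs in the membrane, had 348 and 136 RPKM in R9308 and 103 and 92.5 in Xieqingzao B. That difference did not pass the test (log2 fold change -1.44 ± 0.45, adjusted p = 0.106), but passed without R9308 replicate 2 (0.0387).

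Among 73 transporters of the nitrate and peptide family, 7 were higher in Xieqingzao B and 4 in R9308 (15.1%, against 10.8% of all transcripts). The list includes transcripts annotated by a TGF-beta receptor region, a name this annotation gives to carriers of the family, and the 2 below carry it. Os01t0871500-01, on chromosome 1, had 2.24 and 3.20 RPKM in R9308 and 73.4 and 70.5 in Xieqingzao B (log2 fold change 4.60 ± 0.24). Os06t0264500-01, on chromosome 6, had 6.19 and 7.74 RPKM against 66.9 and 75.6. In the hybrid both were near the R9308 level, with 3.24 and 3.24 RPKM of the first and 6.02 and 9.95 of the second. Without R9308 replicate 1, 3 of the 73 were called, without R9308 replicate 2, 5 were, and without Xieqingzao B replicate 1, 7 were.

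Of 16 transporters of root uptake looked up by locus, edgeR called NRT2.1 higher in R9308 and HKT1;5 higher in Xieqingzao B, 5 had an unadjusted p under 0.05 and DESeq2 called 4. HKT1;5 (Os01t0307500-01), which retrieves sodium from the xylem sap, had 0.566 and 3.12 RPKM in R9308 and 43.2 and 26.8 in Xieqingzao B. Its log2 fold change was 4.11 ± 0.75 (adjusted p = 0.0277), and it was not called without R9308 replicate 1 (0.0502) or Xieqingzao B replicate 1 (0.0741). The hybrid had 1.19 and 0.981 RPKM. A metal transporter annotated as OsNramp1 (Os07t0258400-01) had 0.749 and 4.08 RPKM in R9308 and 26.4 and 49.4 in Xieqingzao B (log2 fold change 3.84 ± 0.78). It was not called without R9308 replicate 1 (0.0669), Xieqingzao B replicate 1 (0.0555) or Xieqingzao B replicate 2 (0.0721).

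IRO2 (Os01t0952800-01), a regulator of the response to iron deficiency, had 10.7 and 33.2 RPKM in R9308 and 80.9 and 110 in Xieqingzao B, and its difference did not pass the test (adjusted p = 0.0777, or 0.0460 without R9308 replicate 2). Of the 5 loci of the iron deficiency list 0 were called by edgeR, with 2 at an unadjusted p under 0.05, and DESeq2 called 2. The root-specific gene RCc3 (Os02t0662000-01), a marker of root tissue, differed widely between replicates, with 6.41 and 83.8 RPKM in Xieqingzao B and 43.1 and 12.9 in R9308. Lsi2 (Os03t0107300-01), the silicon exporter, had 226 and 734 RPKM in Xieqingzao B and 631 and 563 in R9308. Without Xieqingzao B replicate 2, both Lsi1 and Lsi2 passed the threshold on p and were lower in Xieqingzao B, with adjusted p = 0.0392 and 0.0210.

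Transcripts of the light reactions of photosynthesis, which are markers of green tissue, were present in these roots, and those called were mostly higher in Xieqingzao B. Of 64 tested, 17 were higher in Xieqingzao B and 2 in R9308 (29.7%, against 10.8% of all transcripts). The median log2 fold change of the 64 was 2.60, or 1.56 with the transcripts at 0 in 1 line set to their bound. A member could pass the filter on low counts through 1 genotype alone, so this median depends in part on which members passed. Summed over all 121 annotated members the level overlapped between the lines, at 1114 and 879 RPKM in R9308 and 978 and 959 in Xieqingzao B. Without R9308 replicate 1, 8 were called, and without R9308 replicate 2, 9 were. The oxygen-evolving complex protein 1 (Os01t0501800-01) had 1.26 and 2.15 RPKM in R9308 and 34.6 and 36.0 in Xieqingzao B, a log2 fold change of 4.24 ± 0.39 (adjusted p = 0.00556). The 23 kDa polypeptide of photosystem II (Os07t0141400-01) had 0.301 and 0.369 RPKM against 15.1 and 15.6. Photosystem I subunit IV (Os07t0435300-01) had 0.438 and 0.402 RPKM against 13.0 and 15.3. Summed over all 39 antenna proteins, the R9308 libraries had 4.86 and 8.18 RPKM, those of Xieqingzao B 115 and 191, and those of the hybrid 313 and 101. Of the 39, 17 were at 0 in both libraries of R9308 and 12 in both of Xieqingzao B. The part of green tissue in these differences was not tested.

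The 2 members that were higher in R9308 included a root-type ferredoxin (Os01t0860601-01), an electron carrier of non-green plastids, with 126 and 104 RPKM against 50.1 and 49.2 (adjusted p = 0.0129, or 0.0681 without R9308 replicate 1). Ferredoxin III (Os03t0835900-01), the member with the highest level, had 485 and 436 RPKM in R9308 and 345 and 309 in Xieqingzao B, and did not pass the test (adjusted p = 0.0871).

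Fermentation, which keeps glycolysis running without oxygen, was represented by 10 loci, namely 5 of pyruvate decarboxylase, 3 of alcohol dehydrogenase and 2 of lactate dehydrogenase. The paper lists as many loci of each enzyme as up-regulated in the hybrid, from these same libraries. The list was thus not chosen apart from the data, so its share cannot be judged against the 10.8% of all transcripts. Of the 10, 4 were higher in R9308 and 0 in Xieqingzao B by edgeR, and DESeq2 called 7. The 4 were pyruvate decarboxylases and alcohol dehydrogenases, and neither lactate dehydrogenase was called. The median log2 fold change of the 10 was -2.25. Alcohol dehydrogenase 2 (ADH2, Os11t0210500-01) had 971 and 759 RPKM in R9308 and 178 and 358 in Xieqingzao B, a log2 fold change of -1.82 ± 0.38 (adjusted p = 0.0392). Another alcohol dehydrogenase next to it on chromosome 11 (Os11t0210600-01) had 141 and 253 RPKM against 17.5 and 5.55 (log2 fold change -4.21 ± 0.64). Alcohol dehydrogenase 1 (Os11t0210300-01) had 61.7 and 56.0 RPKM in R9308 and 44.3 and 69.9 in Xieqingzao B, which overlap. The pyruvate decarboxylase with the highest level (Os05t0469800-00) had 142 and 96.6 RPKM against 12.6 and 41.3, and did not pass the test (adjusted p = 0.0645, or 0.0165 without Xieqingzao B replicate 2). Both called alcohol dehydrogenases were not called without either R9308 replicate (adjusted p between 0.0583 and 0.157), and ADH2 was also not called without Xieqingzao B replicate 1 (0.0531).

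Of 159 glycolysis transcripts, a list that holds the 10 loci above, 9 were higher in R9308 and 3 in Xieqingzao B (7.55%), below the share of all transcripts. Triosephosphate isomerase (Os01t0147900-01) had 935 and 841 RPKM in R9308 and 395 and 491 in Xieqingzao B (log2 fold change -1.13 ± 0.20), and was called without Xieqingzao B replicate 2 alone among the fits that left out a library (adjusted p between 0.0560 and 0.115 in the others). Enolase 2 (Os03t0248600-01) had 201 and 212 RPKM against 102 and 93.1, and was not called without R9308 replicate 1 or 2 (0.0670 and 0.0662). Without either R9308 replicate, 2 of the 159 were called. Of 6 sucrose synthases tested, which split sucrose for use in the root, 0 were called by edgeR, with 0 at an unadjusted p under 0.05, and 0 by DESeq2.

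**Figure D4:**
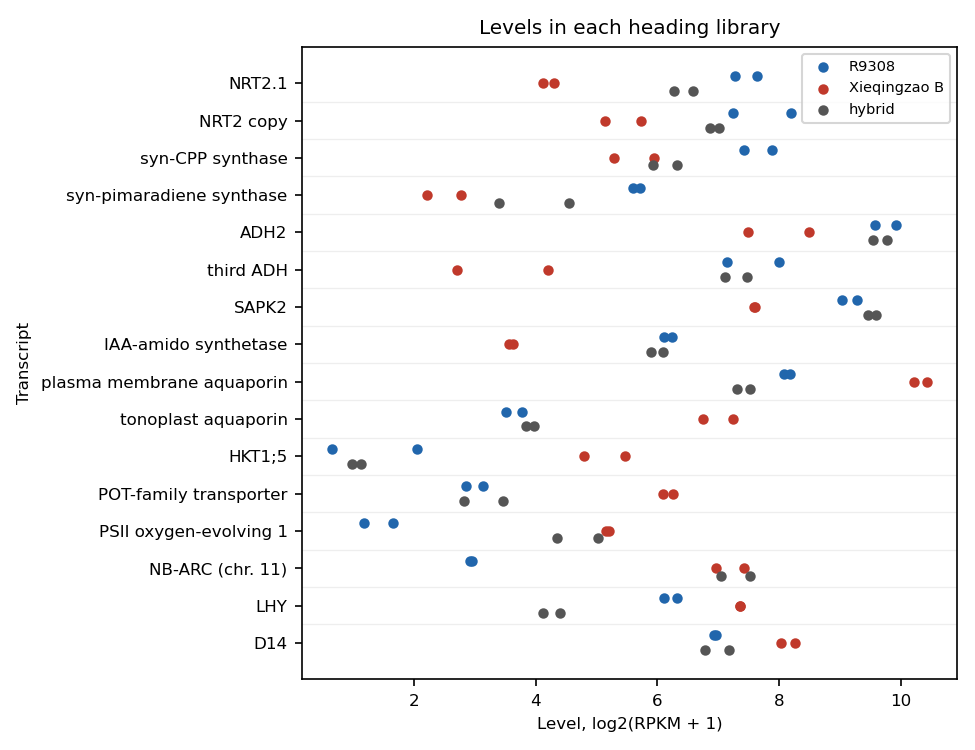
Points give log2(RPKM + 1) in each of the 2 heading libraries of R9308 (blue), Xieqingzao B (red) and the hybrid (grey) for 16 transcripts described in the text. The 8 transcripts from NRT2.1 to the IAA-amido synthetase were higher in R9308 and the 8 below them were higher in Xieqingzao B.

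Among regulators of stress and hormone responses, SAPK2 (Os07t0622000-01), a kinase of abscisic acid signalling, had 623 and 521 RPKM in R9308 and 191 and 193 in Xieqingzao B. Its log2 fold change was -1.70 ± 0.20 (adjusted p = 0.00970), or 0.0551 without R9308 replicate 1. Of the 4 kinases of this family looked up, SAPK10 (Os03t0610900-01) was also higher in R9308, at 11.8 and 10.7 RPKM against 5.56 and 4.75, but was not called in any fit that left out a library (adjusted p between 0.107 and 0.186). An IAA-amido synthetase (Os07t0592600-01), which binds the hormone auxin to amino acids and so removes it, had 74.5 and 68.1 RPKM in R9308 and 10.8 and 11.3 in Xieqingzao B (log2 fold change -2.81 ± 0.18, adjusted p = 0.00270). Over the auxin response families, 7 of 82 tested were higher in R9308 and 1 in Xieqingzao B (9.76%), and 2 of the 82 were called without R9308 replicate 1 and 5 without R9308 replicate 2. The share of the auxin response families was thus near the 10.8% of all transcripts. A heat shock factor (Os02t0527300-01) had 112 and 78.7 RPKM in R9308 and 11.01 and 6.80 in Xieqingzao B.

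WRKY factors, which regulate defence genes, were higher in R9308 in 9 of 81 cases and higher in Xieqingzao B in 5. That is 17.3%, against 10.8% of all transcripts. Os11t0116900-01, annotated as similar to WRKY 46, had 205 and 187 RPKM in R9308 and 89.2 and 85.9 in Xieqingzao B, and was not called without R9308 replicate 1 or 2 (adjusted p = 0.0761 and 0.0585). Os11t0117500-01 had 13.1 and 8.64 RPKM against 0.641 and 0.318 (0.0501 without R9308 replicate 1). Without R9308 replicate 1, edgeR called 0 WRKY factors, without R9308 replicate 2 it called 3 and without Xieqingzao B replicate 1 it called 6, and DESeq2 called 19 on all libraries.

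The clock gene LHY (Os08t0157600-01), which peaks at dawn, had 68.3 and 79.1 RPKM in R9308 and 162 and 163 in Xieqingzao B (log2 fold change 1.02 ± 0.20, adjusted p = 0.0315). PRR1 (Os02t0618200-01), which peaks in the evening in plants, had 63.8 and 59.4 RPKM against 26.0 and 22.1 (log2 fold change -1.48 ± 0.17, adjusted p = 0.00937, or 0.0576 without R9308 replicate 1). These were the 2 called of 9 tested loci of the clock and of heading date, when 10.8% of all transcripts were called. LHY was called without Xieqingzao B replicate 2 alone among the fits that left out a library (0.0690 to 0.159 in the others). D14 (Os03t0203200-01), the receptor of strigolactone, a hormone of branching, had 121 and 124 RPKM in R9308 and 260 and 306 in Xieqingzao B (adjusted p = 0.0290), and was not called without R9308 replicate 1 or 2 or Xieqingzao B replicate 2 (0.142, 0.129 and 0.0585). It was the 1 called of 5 tested loci of the strigolactone list, against the same 10.8% of all transcripts.

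Of 6 primary wall cellulose synthases, CESA3 (Os07t0424400-01) and CESA2 (Os03t0808100-01) were higher in Xieqingzao B. CESA3 had 18.5 and 16.6 RPKM in R9308 and 64.9 and 44.1 in Xieqingzao B (log2 fold change 1.51 ± 0.26, adjusted p = 0.0239). CESA2 had 3.20 and 4.02 RPKM against 7.26 and 10.4. Neither was called without R9308 replicate 1 or 2 (adjusted p between 0.106 and 0.185), and CESA2 was also not called without Xieqingzao B replicate 2 (0.0861). Of the 3 secondary wall cellulose synthases 0 were called by edgeR, with 0 at an unadjusted p under 0.05, and 0 by DESeq2. Among 60 histone transcripts, markers of dividing cells, 5 were higher in R9308 and 0 in Xieqingzao B, a share of 8.33% that is below the 10.8% of all transcripts, with a median log2 fold change of -0.39. A histone H4 (Os10t0539500-02) had 78.5 and 57.8 RPKM against 39.1 and 33.4, and the summed level of all histones overlapped between the lines, at 3426 and 2466 RPKM in R9308 and 2620 and 3266 in Xieqingzao B. This H4 was not called in any fit that left out a library (adjusted p between 0.0805 and 0.191). Without R9308 replicate 1, edgeR called 0 histones, and without R9308 replicate 2 or Xieqingzao B replicate 1 it called 1, whereas DESeq2 called 9 on all libraries.

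Ribosomal proteins differed little transcript by transcript, with 8 of 384 higher in Xieqingzao B and 0 in R9308. However, 317 of the 384 had a log2 fold change above 0, against 14137 of all 27187 transcripts tested. The median of the 384 was 0.37. Summed over the 439 annotated members, the level was 19813 and 18738 RPKM in R9308 and 29781 and 22798 in Xieqingzao B. The called member with the highest level, a protein annotated as similar to L26B (Os01t0140500-01), had 12.7 and 9.85 RPKM in R9308 and 92.8 and 55.6 in Xieqingzao B (log2 fold change 2.59 ± 0.33), and was not called without R9308 replicate 1 or 2 (adjusted p = 0.0652 and 0.0678). Of the 384, 0 were called without R9308 replicate 1, 4 without R9308 replicate 2 and 19 without Xieqingzao B replicate 2, and DESeq2 called 13 on all libraries.

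The same lines were set side by side at the tillering stage, from libraries that share none with the heading stage. R9308 replicate 1 of the tillering stage stood apart before any comparison. Its antenna proteins summed to 6510 RPKM, against between 7.97 and 17.9 in the other 3 parental libraries of that stage. Of the 201 DEGs without a count in R9308 at heading, 191 had a level in Xieqingzao B at tillering. That library had counts for 120 of the 191, at a median of 9.58% of the Xieqingzao B level, whereas the other R9308 library had counts for 80 at a median of 0%. Of the 257 DEGs without a count in Xieqingzao B at heading, 255 had a level in R9308 at tillering, and Xieqingzao B replicates 1 and 2 had counts for 177 and 52 of them, at medians of 3.47% and 0% of the R9308 level.

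The tillering fit also held the hybrid, whose replicate 2 stood apart, with ribosomal proteins summing to 96784 RPKM against 34517 in replicate 1 and histones to 10314 against 2671. At tillering, 7 of 28434 transcripts, or 0.0246%, were called between the lines by the same test. The part of this hybrid library in that count and in the interaction was not tested. Of the heading DEGs, 2830 were tested at tillering, and 1950 of them (68.9%) had the same direction there, against 54.5% of all 26366 transcripts tested at both stages. The share grew with the size of the difference at heading. It was 55.0% for DEGs of 2- to 4-fold, 66.4% for those of 4- to 16-fold and 91.1% for those of 16-fold or more. In the last class, 694 of 833 had tillering libraries that did not overlap and lay in the heading direction. Transaldolase Os01t0926300-02, for example, had 385 and 484 RPKM in R9308 at tillering and 0 in both Xieqingzao B libraries.

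**Figure D5:**
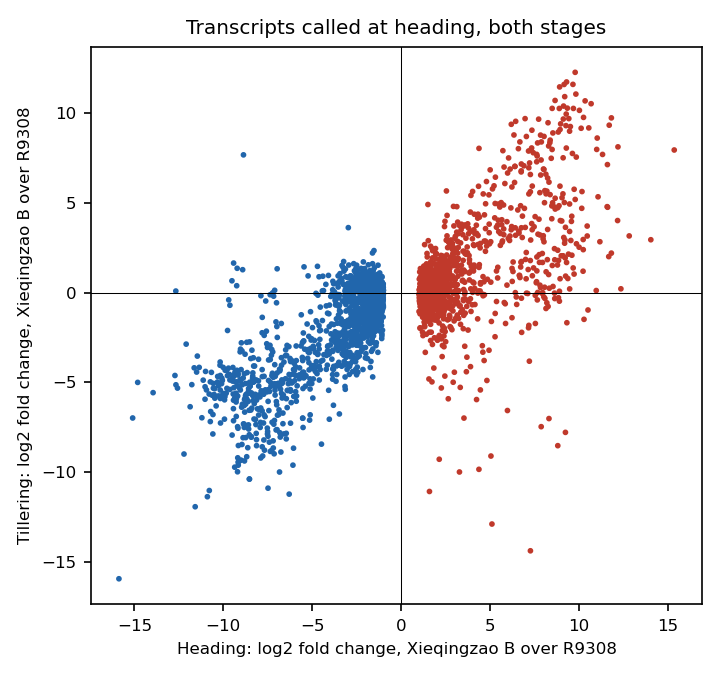
Each point is 1 of the 2830 heading DEGs that were tested at both stages, with its log2 fold change, Xieqingzao B over R9308, at heading on the x axis and at tillering on the y axis (red, higher in Xieqingzao B at heading; blue, higher in R9308). Large differences lie mostly in the same direction at both stages, whereas small ones scatter around 0 at tillering.

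Whether the difference between the lines changed from tillering to heading was tested as an interaction over the 12 libraries. By edgeR's quasi-likelihood test 0 of 29560 transcripts passed, with a smallest adjusted p of 0.127, and 3668 had an unadjusted p under 0.05. DESeq2 called 1160. In 9.25% of the 26366 transcripts the libraries of the lines did not overlap at either stage and lay in opposite directions. Without regard to overlap at heading, the tillering libraries lay apart against the heading direction in 17.1% of all 26366 transcripts and in 12.7% of the 2830 heading DEGs. Syn-copalyl diphosphate synthase (Os04t0178300-02) stood at 206 and 178 RPKM in R9308 and 57.9 and 18.7 in Xieqingzao B at tillering, again higher in R9308, whereas the gibberellin enzyme Os02t0278700-01 had 13.2 and 20.7 RPKM in R9308 and 13.2 and 8.88 in Xieqingzao B. Nitrate transporter NRT2.1 (Os02t0112100-00) had 8.04 and 4.08 RPKM in R9308 and 13.6 and 12.2 in Xieqingzao B at tillering, below its heading level in R9308. The plasma membrane aquaporin Os04t0559700-01 had 386 and 336 RPKM in R9308 and 533 and 266 in Xieqingzao B, which overlap.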

How the data were processed

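The data are 12 root RNA-Seq libraries. The authors filtered reads for quality (CASAVA 1.8 is listed in the submitters' processing notes), used RSEM 1.1.11 with transcripts of the japonica line Nipponbare (IRGSP build 5.0), and deposited whole counts per transcript. The RPKM values deposited by the authors equal counts over transcript length and library sum, as checked on 504972 values. The authors' columns of log2 fold changes, p-values and FDR were not used. Libraries held 8209696 to 15830233 counts, and 2 per group limit precision. Replicate numbers follow the order of the columns of a group.

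Counts of the 6 heading libraries were fitted with edgeR 4.0.16 (R 4.3.3, limma 3.58.1) after filterByExpr, and DESeq2 1.42.0 was an alternative. The script was tested on simulated data. Python 3.11.15, numpy 2.4.6, pandas 2.3.3, scipy 1.17.1 and matplotlib 3.10.9 were used for the rest. Chromosomes and gene order come from the locus numbers, and no sequences were used.

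Named transcripts were drawn from those of the 10 loci with the largest rise and the 10 with the largest fall (both libraries of a line above the other, mean RPKM of at least 5, known annotation). Each such locus is represented by its qualifying transcript with the highest mean RPKM. Also drawn on were the extremes and the highest level of lists, listed loci, 5 loci with transcripts called both ways, and DEGs of the 5 densest runs of 20 loci. Not every transcript that these rules allow is named. Other list members were named after their values were seen. Transcripts and lists were chosen with earlier results of these data known. Settings tried were other scalings, tests, filters, sets of libraries, locus sums, a replicate block and leaving out each library. A block with crossed numbers was chosen after seeing the data.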

Additional observations from a re-analysis of the deposited data

Results flagged for a closer look

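For 14 of the 79 named transcripts tested, the libraries of the lines did not overlap at either stage. They lay in opposite directions at heading and at tillering. Some of the 79 were named after their values were seen. Over all transcripts tested at both stages, 9.25% did so. Without regard to overlap at heading, the tillering libraries lay apart against the heading direction in 17.1% of all transcripts and 12.7% of the heading DEGs. No interaction passed the quasi-likelihood test (adjusted p of at least 0.152 for these 14). The log2 fold changes at heading, Xieqingzao B over R9308, were as follows.

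NRT2.1 (Os02t0112100-00) had -3.44 and its partner NAR2.1 (Os02t0595900-00) had -1.44. Tillering levels of NAR2.1 were 27.4 and 24.4 RPKM in R9308 and 56.4 and 56.2 in Xieqingzao B. The IAA-amido synthetase Os07t0592600-01 had -2.81 at heading, with the smallest adjusted p of the 14 for the interaction (0.152). SAPK2 (Os07t0622000-01) had -1.70 at heading and 115 and 146 RPKM in R9308 against 248 and 266 in Xieqingzao B at tillering. SAPK10 (Os03t0610900-01) had -1.25, PRR1 (Os02t0618200-01) had -1.48 and enolase 2 (Os03t0248600-01) had -1.21. Os04t0218400-00, similar to an ankyrin protein kinase, had -2.42, and the helix-loop-helix protein Os04t0301500-01 had -2.60. Ferredoxin III (Os03t0835900-01) had -0.62 and, like NAR2.1, did not pass the test at heading.

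With both libraries of Xieqingzao B above those of R9308 at heading and below them at tillering were Os06t0264500-01, a nitrate and peptide family transporter, with 3.23, and the gibberellin enzyme Os02t0278700-01 with 4.15, although the nearest tillering libraries of the lines were both at 13.2 RPKM after rounding. The iron transporter IRT1 (Os03t0667500-01), whose difference did not pass the test at heading (adjusted p = 0.0662), had 2.47 and the chlorophyll a-b binding protein Os09t0346500-02 had 7.27, a fitted value that rests on 2 counts in R9308 (ratio 170 with a counting interval from 46.7 to 1406). The last stood at 441 RPKM in R9308 replicate 1 of the tillering stage, 4.85 in replicate 2 and 0 in both Xieqingzao B libraries.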

How the results depend on the processing

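Leaving out 1 of the 4 parental heading libraries gave 612 to 2863 DEGs, 251 to 1013 higher in Xieqingzao B and 361 to 1850 higher in R9308, with a lone library assumed to vary like the other groups. The 4 parental libraries alone gave 1615 (670 and 945), and all 12 libraries gave 1731 (614 and 1117). Adding the replicate block gave 1277 (490 and 787). Deviations of same-numbered libraries of the lines correlated at -0.202 over the transcripts tested. With 2 libraries per line, this value cannot decide whether the replicate numbers pair the libraries. With the numbers of Xieqingzao B crossed, a block chosen after seeing the data, 2449 were called. RLE factors, library size scaling, DESeq2, exact tests, other filters and locus sums kept each count within 1.5 times of the values given. For the exact test with a common dispersion, 2065 of its 3341 calls were among the 2926. For the interaction, DESeq2 called 1160, and leaving out 1 parental library gave 0 to 366, the highest without R9308 replicate 2 of the tillering stage, 1 without Xieqingzao B replicate 2 of the heading stage and 4 without its replicate 2 of the tillering stage. Other settings gave 0. For 4 transcripts that were not called, the direction turned without 1 library. The log2 fold change of RCc3 (Os02t0662000-01) ran from -2.24 (without Xieqingzao B replicate 2) through -0.08 (without R9308 replicate 2) to 1.67. That of Lsi1 (Os02t0745100-01) ran from -1.14 to 0.0148, that of Lsi2 (Os03t0107300-01) from -1.52 to 0.16 and that of ADH1 (Os11t0210300-01) from -0.53 to 0.11, the highest in each case without Xieqingzao B replicate 1. The cause was not tested.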
